A study of Mus musculus with 24 samples.

Results

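The enhancer catalogue of normal granulocyte-monocyte progenitors (GMP) was set against the catalogue named k- from MLL-AF10 leukemia, region by region, to show which candidate enhancers each list held alone and which were held by both. The members were the regions of these lists on chromosomes 1 to 19, without the stretch of chromosome 11 below position 3100000: 3164 of the 3332 GMP regions and 13639 of the 13856 k- regions. Together they made 16803 of the 26592 regions in the study's GMP, k+ and k- enhancer lists. A region was called shared if it overlapped the other list by 1 bp or more. A GMP region without such an overlap was called GMP-only, and a k- region without one k- only.

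The study profiled H3K27ac, H3K4me1 and H3K4me3 by ChIP-seq, with an input library, in C57BL/6 mouse cells labelled as bone marrow. The 3 untreated populations were GMP, stem cells of the leukemia (LSC) and its mature AML cells (mAML), with 1 library for each mark and population. The leukemia cells were murine, carried MLL-AF10 and were kept in culture with conditioned medium, and the labels attach the same culture text to the GMP libraries. No genotype of the GMP, number of mice or number of leukemia clones is given in the labels. The name k- is not defined in the labels. Kit is a surface receptor commonly used to part immature from mature myeloid cells, but no source used here says whether k- means Kit-negative mAML cells. The list is therefore called by its own name. With 1 list per population there was no replicate, and no test between the cell populations was possible. Intervals given below are exact 95% Clopper-Pearson intervals. They cover counting error only and are too narrow, since neighbouring regions are not independent.

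Enhancers are stretches of DNA that bind transcription factors and raise the activity of genes, often from far away. Active ones carry H3K27ac on the nucleosomes around them, and both active and poised ones carry H3K4me1, while H3K4me3 marks promoters. GMP are the committed bone marrow progenitors that give rise to neutrophils and monocytes, and their enhancers are set by factors such as PU.1 and C/EBP alpha. MLL-AF10 joins the DNA-binding part of the MLL methyltransferase to AF10, a partner of the H3K79 methyltransferase DOT1L, and keeps HOXA genes and MEIS1 active in myeloid leukemia.

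The k- catalogue was the longer one, and by the 1 bp rule about as many GMP regions overlapped it as did not. The lists covered 2.26 Mb for GMP and 16.6 Mb for k-, which was 0.0914% and 0.672% of the autosomes. The k- list thus had 4.31 times as many regions and 7.36 times the covered length. Of the 3164 GMP regions, 1599 had no k- overlap, a share of 50.5% (48.8 to 52.3%), and 1565 were shared. The share without a partner was 87.1% if a pair had to share 50% of both regions, and 70.5% against the 3164 widest k- regions. Of the 13639 k- regions, 12197 had no GMP overlap, a share of 89.4% (88.9 to 89.9%), and 1442 were shared. The k- share is bound by list length, because the GMP list could have met only a small part of the k- list even with a partner for every region. The shared length was 1.09 Mb, or 48.1% of the GMP length and 6.53% of the k- length. GMP-only regions covered 0.883 Mb and k- only regions 13.3 Mb, a ratio of 15.1 in length and 7.63 in number. The lists hold no score or read count, so how far calling depth set these lengths was not tested.

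Many regions lay close to the limit of 1 bp. All edges lay on a 200 bp grid. Of the shared GMP regions, 393 had 200 bp in common with k- regions, the least that the grid allows. Among these, 236 were themselves 200 bp wide and so lay wholly inside k- sequence, while the rest were wider and overlapped in part. Just outside the limit, 170 GMP-only regions touched a k- region edge to edge, and 120 and 80 lay at gaps of 200 and 400 bp. With touching regions counted as overlapping, the GMP share without a partner was 45.2%.

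Shared regions were wider than unshared ones in both catalogues. GMP-only regions had a median width of 400 bp (quartiles 200 and 800 bp) and shared GMP regions 600 bp (400 and 1200 bp). In k- the median was 800 bp (400 and 1400 bp) for k- only regions and 1800 bp (1000 and 3000 bp) for shared ones. With at least 50% of both regions shared, the medians were 400 and 1000 bp in GMP and 800 and 1200 bp in k-, so the lists are not ranked by this step. The narrowest regions, of 200 bp, made up 30.6% (28.3 to 32.9%) of GMP-only and 15.1% (13.3 to 17.0%) of shared GMP regions. In k- they made up 17.6% (16.9 to 18.3%) of the k- only and 4.65% (3.62 to 5.86%) of the shared regions. Regions of 2000 bp or more showed the opposite order. They made up 1.44% (0.914 to 2.15%) of GMP-only, 8.18% (6.87 to 9.65%) of shared GMP, 15.2% (14.5 to 15.8%) of k- only and 48.8% (46.2 to 51.4%) of shared k- regions. The intervals of unshared and shared regions were apart in each of these comparisons.

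**Figure D1:**
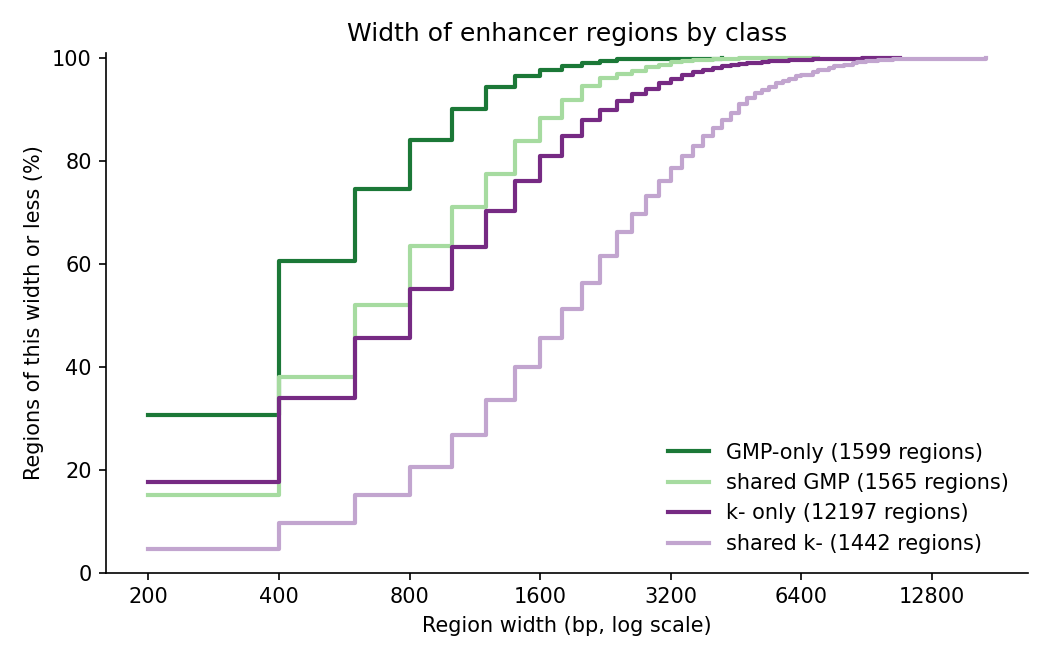
Cumulative share of regions (y axis, percent) by width (x axis, bp, log scale) for GMP-only, shared GMP, k- only and shared k- regions. The shared k- line lies farthest to the right, with a median of 1800 bp, and the GMP-only line farthest to the left, with a median of 400 bp.

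The share of regions with a partner rose with width at every step in both lists. In the GMP list it was 32.6% (29.1 to 36.1%) of the 725 regions of 200 bp, 45.2% (42.4 to 47.9%) at 400 to 600 bp and 54.5% (50.2 to 58.7%) at 800 to 1000 bp. It reached 72.0% (67.9 to 75.9%) at 1200 to 2000 bp, and from 2200 bp upwards, with 102 regions, it was 84.3% (75.8 to 90.8%). Among k- regions the shares were lower, from 3.02% (2.35 to 3.83%) at 200 bp, with 2215 regions, to 29.9% (28.0 to 31.9%) from 2200 bp upwards, with 2102. The intervals of the k- classes of 200 bp and of 400 to 600 bp overlapped. A wide region has more room to be met, so the overlap was also counted per base pair. The share of GMP length inside k- regions rose as well, from 32.6% for regions of 200 bp over 45.1% at 800 to 1000 bp to 60.7% for the widest. The share of k- length inside GMP regions was 3.02% and 2.88% in the 2 narrowest width classes and 9.18% in the widest.

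**Figure D2:**
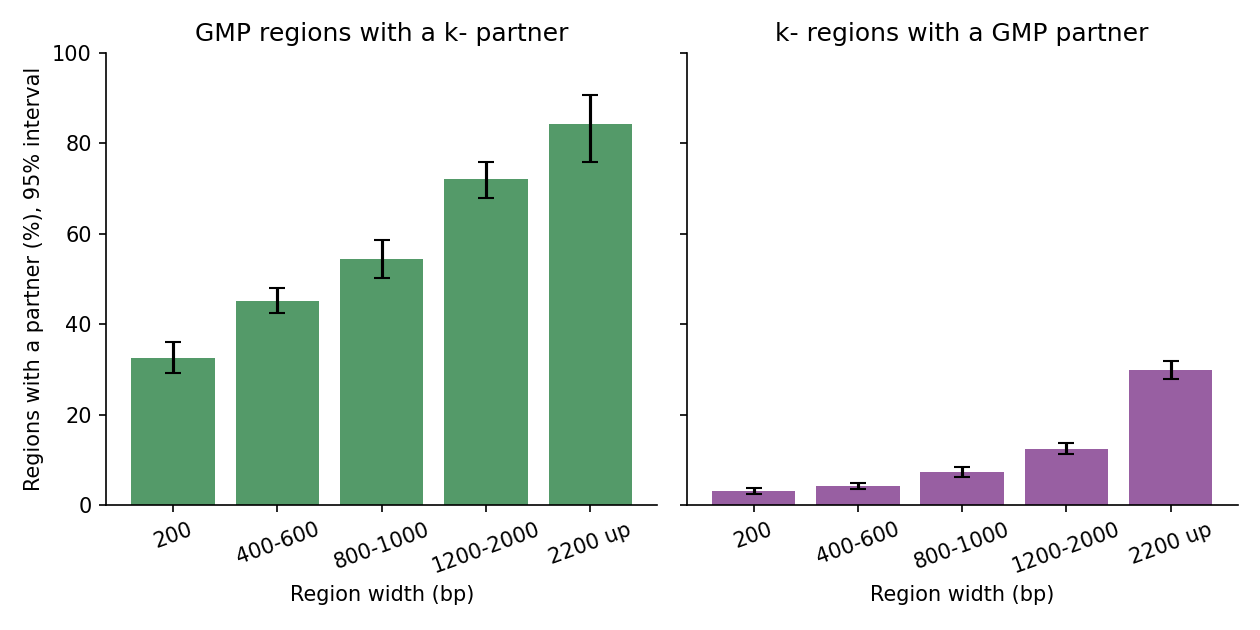
Share of regions with a partner in the other list (bars, percent, with exact 95% intervals) by region width (x axis, bp), for GMP regions on the left and k- regions on the right. The GMP bars climb from 32.6% to 84.3% and the k- bars from 3.02% to 29.9%.

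Where the catalogues met, the leukemia region usually enclosed the GMP region. The 1565 shared GMP and 1442 shared k- regions formed 1599 overlapping pairs, a number that equals the count of GMP-only regions by coincidence. In 1244 pairs each region had the other as its sole partner. Of these, 64.1% (61.3 to 66.7%) had the GMP region inside a longer k- region, 10.5% (8.81 to 12.3%) had the k- region inside a longer GMP region and 23.2% (20.9 to 25.7%) were staggered. Only 28 pairs, or 2.25% (1.50 to 3.24%), had the same start and end. The k- region was the wider one in 77.4% (74.98 to 79.7%) of these pairs and the GMP region in 16.5% (14.5 to 18.7%). The median width in these pairs was 600 bp for the GMP and 1800 bp for the k- regions. The ratio of widths within a pair had a median of 2.33 (quartiles 1.20 and 4.75), and the midpoints were a median of 300 bp apart. Over the 1244 pairs, k- regions reached beyond the GMP edges by 1.82 Mb in sum and GMP regions beyond the k- edges by 0.240 Mb.

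Over all shared GMP regions, 1079, or 68.9%, lay wholly within k- sequence, while 184 shared k- regions, or 12.8%, lay wholly within GMP sequence. Several GMP regions could fall under one k- region. In 137 places a k- region ran over 2 or more GMP regions, 294 in all. The k- regions there had a median width of 3400 bp, and the GMP regions under them were separated by a median of 600 bp (200 to 4000 bp). The reverse, a GMP region over 2 k- regions, was seen 34 times, with GMP regions of a median 1600 bp. None of the GMP regions met 3 k- regions.

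The k- region over the most GMP regions lay on chromosome 6 in band qG1, from 134063201 to 134071200. It was 8000 bp wide and overlapped 4 GMP regions of 400, 1400, 400 and 1200 bp, of which 3200 bp were shared. The other 4 named by the number of GMP partners each met 3. On chromosome 1 these were a region of 9800 bp in band qE4, from 132981001 to 132990800, and one of 5200 bp in band qH6, from 193021001 to 193026200. On chromosome 2 they were a region of 7000 bp in band qF1, from 126297601 to 126304600, and one of 7800 bp in band qF2, from 132421001 to 132428800. The qF1 region shared 5200 bp with GMP and the other 3 between 1400 and 2400 bp, so most of their length was k- alone. Among the 34 GMP regions over 2 k- regions, the widest of the 5 that come first in chromosome order was 2600 bp, on chromosome 1 in band qH3 from 174442601 to 174445200. It shared 1200 bp with k- regions of 200 and 1800 bp.

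The widest shared GMP regions differed in how much of them the leukemia list held. The first, on chromosome 7 in band qA3 from 29164601 to 29171600, was 7000 bp wide and shared 4400 bp with a k- region of 4600 bp. It was thus wider in GMP than in k-. The second, on chromosome 15 in band qD3 from 74759801 to 74764400, measured 4600 bp and shared 600 bp at the edge of a k- region of 8800 bp. The other 3 lay wholly inside k- regions. They were 4200 bp on chromosome 2 in band qF1 (126298201 to 126302400, in a k- region of 7000 bp), 4000 bp on chromosome 8 in band qE2 (129225401 to 129229400, in one of 8000 bp) and 4000 bp on chromosome 17 in band qA3.3 (26668801 to 26672800, in one of 7600 bp).

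The widest GMP-only regions mostly lay beside k- regions. The exception by distance was the first, on chromosome 1 in band qE2.1 from 108411001 to 108415200, with 4200 bp and a gap of 21.2 kb to the nearest k- region. A second GMP-only region of 4200 bp, on chromosome 11 in band qB5 from 79340401 to 79344600, touched a k- region, as did one of 2400 bp on chromosome 2 in band qA1 from 6626801 to 6629200. On chromosome 2 in band qE1, 2600 bp from 90921801 to 90924400 lay 400 bp from a k- region. The fifth, also of 2600 bp, lay on chromosome 18 in band qA1 from 3008601 to 3011200 at a gap of 2.8 kb. It sat close to the lowest GMP start on that chromosome, 3007601, where the mapping of reads was not examined.

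The widest k- only regions were far wider, and none had a GMP region within 30 kb. They measured 10800 bp on chromosome 14 in band qA3 (26667001 to 26677800) and 10200 bp on chromosome 2 in band qH3 (167577001 to 167587200). Another of 10200 bp lay on chromosome 15 in band qF2 (101201401 to 101211600). Those of 9800 bp lay on chromosome 7 in band qA3 (25226601 to 25236400) and on chromosome 9 in band qD (72969601 to 72979400). Their nearest GMP regions were 246.6, 40.8, 50.6, 45.8 and 34.0 kb away, in this order. The one in qH3 had 12 other k- regions within 50 kb and the one in qD had 1.

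GMP-only regions often lay near k- regions, and k- only regions were mostly far from GMP regions. The median gap to the nearest region of the other list was 9.2 kb (quartiles 0.6 and 48.2 kb) for GMP-only and 79.8 kb (16.6 and 294.6 kb) for k- only regions. Within 1 kb of a k- region lay 486 GMP-only regions, or 30.4% (28.1 to 32.7%), and within 10 kb 815, or 51.0% (48.5 to 53.4%). Of the k- only regions, 5.47% (5.07 to 5.89%) lay within 1 kb and 18.8% (18.1 to 19.5%) within 10 kb of a GMP region. With the k- list reduced to its 3164 widest regions, which changes its length, its widths and the classes at once, this order was gone: the shares within 10 kb were 19.6% for GMP-only and 19.5% for k- only regions. At the far end, 238 GMP-only regions, or 14.9%, and 5534 k- only regions, or 45.4%, had none of the other list within 100 kb.

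**Figure D3:**
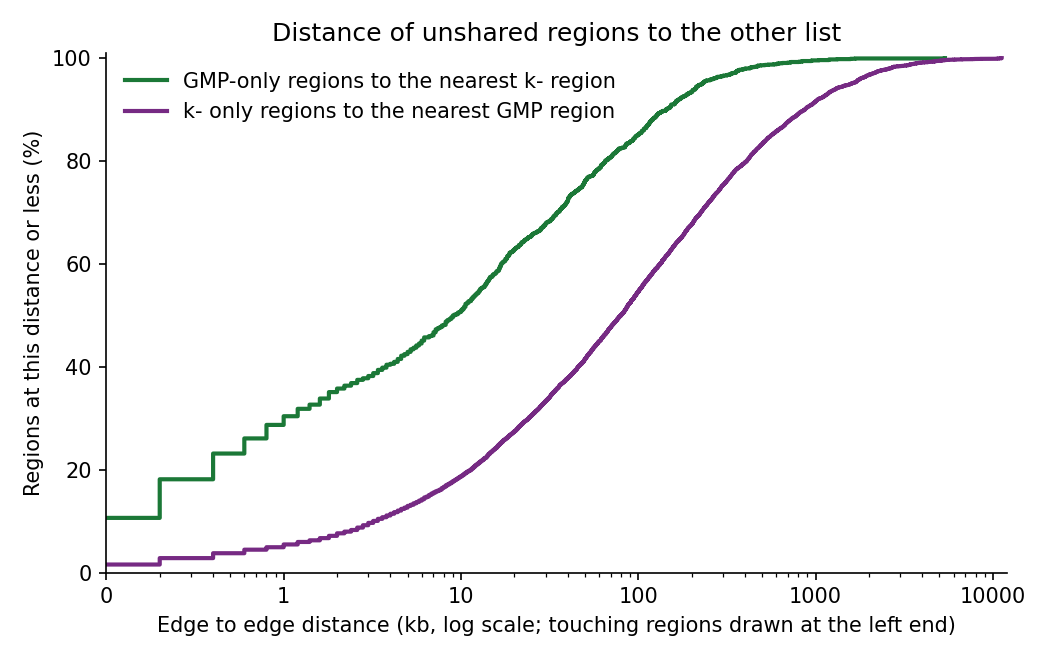
Cumulative share of unshared regions (y axis, percent) by edge to edge distance to the nearest region of the other list (x axis, kb, log scale), for GMP-only and k- only regions. The GMP-only line starts with the 170 touching regions and reaches 51.0% at 10 kb, where the k- only line is at 18.8%.

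The 5 most isolated GMP-only regions were 200 to 1000 bp wide. The farthest lay on chromosome 15 in band qA2, from 19787401 to 19788200, was 800 bp wide and had its nearest k- region 5369 kb away. It was the sole region of either list in that band. The next, from 93720801 to 93721400 on chromosome 6 in band qD1, was 600 bp wide at 1669 kb. A region of 1000 bp on chromosome 10 in band qB3 (55834801 to 55835800) followed at 1574 kb. Regions of 200 bp on chromosome 14 in band qE2.3 (101880601 to 101880800) and chromosome 7 in band qD1 (79405801 to 79406000) followed at 1325 and 1190 kb. Only the last had another GMP region within 50 kb.

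A GMP region more often had a k- partner where other k- regions lay around it. Partners left out, shared GMP regions had a mean of 3.79 k- regions within 50 kb (median 3) and GMP-only regions 2.83 (median 2). No k- neighbour was found for 10.5% (9.01 to 12.1%) of shared and 24.1% (22.0 to 26.3%) of GMP-only regions. Of the 549 GMP regions without such a neighbour, 29.9% (26.1 to 33.9%) had a partner, against 46.1% (43.0 to 49.3%) of the 986 with 1 or 2 and 57.9% (54.7 to 60.99%) of the 968 with 3 to 5. The share then levelled, at 59.4% (55.3 to 63.4%) with 6 to 10 neighbours and 51.2% (39.9 to 62.4%) of the 82 regions with 11 to 18. Width moved with the neighbour count, with medians of 400 bp at up to 2 neighbours and 600 bp above. The step from 0 to 3 to 5 neighbours was still there at a fixed width of 200 bp, and in the widest class, where width still varied. It went from 16.3% (10.4 to 23.8%) to 44.0% (37.0 to 51.2%) among regions of 200 bp, and from 51.6% (41.0 to 62.1%) to 83.7% (77.6 to 88.6%) among those of 1200 bp or more.

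**Figure D4:**
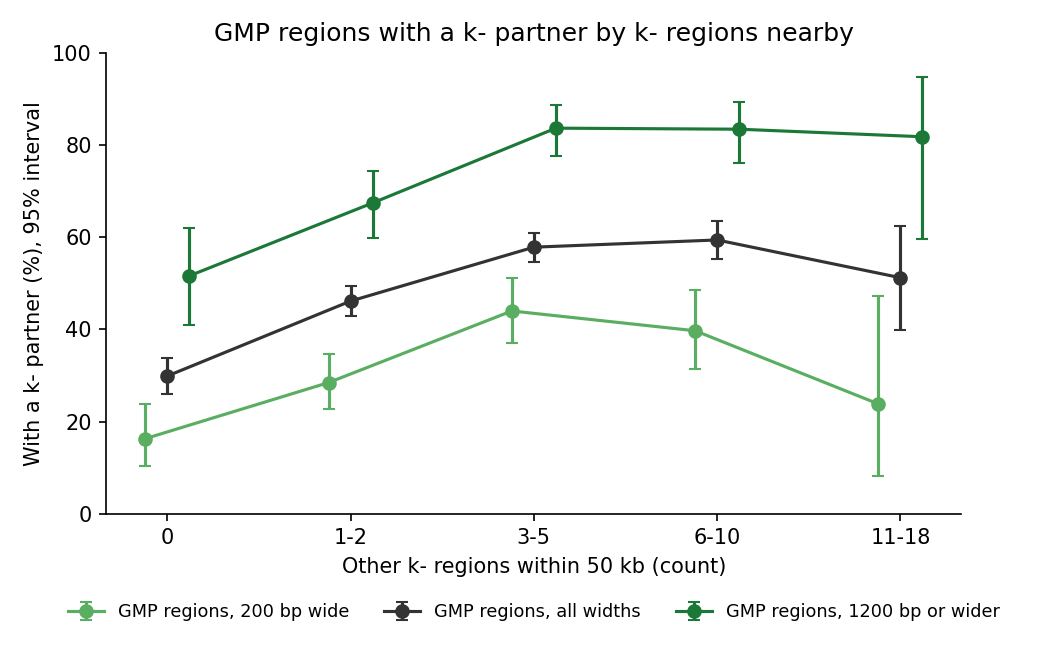
Share of GMP regions with a k- partner (y axis, percent, exact 95% intervals) by the number of other k- regions within 50 kb (x axis), for all widths, for 200 bp and for 1200 bp or more. All 3 lines rise from 0 to 3-5 neighbours, for all widths from 29.9% to 57.9%, and the last class holds 82 regions.

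Neighbouring GMP regions did not always belong to the same class. There were 686 pairs of successive GMP regions within a distance midway between 10 and 15 kb, one in common use for joining enhancers. Both regions were shared in 273 pairs (39.8%), both were GMP-only in 197 (28.7%) and the pair was mixed in 216 (31.5%). In 157 of the pairs a single k- region lay over both. Such pairs count as both shared by construction. Of the 529 pairs left without them, 116 (21.9%) were both shared, 197 (37.2%) both GMP-only and 216 (40.8%) mixed.

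Joining neighbours of either list at the same distance gave 8229 domains. Most domains, 5847 or 71.1%, held k- regions alone, and 3955 of these were single regions. GMP regions alone made up 640 domains (7.78%), with 575 single regions and at most 4 regions. Overlapping regions of both lists were found in 1232 domains (14.97%), and 510 (6.20%) held both lists without any overlap. The 1232 overlapping domains held 58.3% of all GMP and 25.7% of all k- regions. In 784 of them, or 63.6%, there was also a k- only region, and in 222, or 18.0%, a GMP-only region. Every region was shared in 402 of them, or 32.6%. Of the GMP-only regions, 54.9% (52.4 to 57.4%) shared a domain with a k- region, and of the k- only regions 26.0% (25.2 to 26.8%) shared one with a GMP region. When joined at 5 kb, the latter share was 15.9%.

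Large leukemia domains without any GMP region lay on chromosomes 1, 2, 3 and 13. The first, on chromosome 1 in band qB from 39484601 to 39561000, held 14 k- regions of 200 to 3400 bp covering 18000 bp within 76.4 kb. On chromosome 2 in band qA1, 14 regions covering 12800 bp lay from 3621201 to 3680400. On chromosome 3, 13 regions covering 19800 bp lay in band qA1 from 9850001 to 9914600, and 10 in band qF1 from 90461401 to 90514000. The latter were wide, with 1 region of 4800 bp, 1 of 3600 bp and 1 of 3200 bp, and covered 21800 bp. On chromosome 13 in band qA2, 10 regions covering 13600 bp lay from 20184201 to 20244200. Of the domains with k- regions alone, 147 held 5 or more and 5 held 10 or more.

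In the domains with the most shared GMP regions, the shared GMP regions mostly lay inside longer k- regions. On chromosome 6 in band qG1, from 134058601 to 134124000, 7 GMP regions covering 7000 bp stood against 12 k- regions covering 25000 bp, and 6 of the GMP regions were shared. The k- region over 4 GMP regions described above belonged to it. Not all shared GMP regions of this domain lay inside k- regions. The one of 1200 bp, from 134070201 to 134071400, ran past the end of that k- region at 134071200. The one of 2600 bp at the right end of the domain met separate k- regions of 1200 and 1400 bp. On chromosome 9 in band qC, from 65381001 to 65401000, 5 GMP regions of 400 to 1600 bp lay under 3 k- regions of 3800, 7000 and 3200 bp, and no region of either list was unshared. On chromosome 8 in band qC3, from 86715201 to 86760200, 6 of 7 GMP regions were shared among 9 k- regions. In band qF1 of chromosome 2, from 126290401 to 126327600, 5 of 6 GMP regions were shared. In band qB5 of chromosome 16, from 49768601 to 49803800, all 5 were, with 3 of the 7 k- regions unshared.

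The domains with the most GMP-only regions held 4 of them, and 3 of the 6 such domains had no k- region. On chromosome 8 in band qA1.3, 4 GMP regions of 400 to 2400 bp lay from 19878401 to 19888600. In that whole band all 8 GMP regions were without a k- partner. The mapping of reads in this band was not examined. On chromosome 12 in band qA3, 4 GMP regions covering 1800 bp lay from 32781601 to 32796600. On chromosome 16 in band qB3, 4 GMP regions of 400 to 2200 bp lay from 33776401 to 33794400. The other 3 held regions of both lists. On chromosome 7 in band qD2, 4 GMP regions of 200 to 400 bp were interspersed with 5 k- regions of 200 to 2600 bp from 82716801 to 82762400, and none overlapped. On chromosome 13 in band qA3.3, 4 GMP and 4 k- regions lay from 37935601 to 37973000 without overlap. On chromosome 2 in band qH3, from 169973401 to 170047400, 16 k- regions covering 16200 bp stood beside 5 GMP regions covering 3200 bp, of which 1 was shared.

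On the scale of 1 Mb, nearly all windows with a GMP region also held a k- region, while 34.98% of the 1635 windows with a k- region held no GMP region. Of 2482 windows of 1 Mb on the autosomes, 1063 held regions of both lists, 572 k- regions alone, 31 GMP regions alone and 816 neither. The 31 windows held 34 GMP regions, or 1.07% of the list, so nearly all GMP-only regions lay in windows with k- regions. The 572 windows held 2236 k- regions, or 16.4% of the list, and 46 of them held 10 or more. Windows with 1 to 5 k- regions had a mean of 0.688 GMP regions, those with 6 to 15 had 2.19 and those with 16 or more had 4.80.

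The unshared part of the GMP list was spread over all autosomes. The share of GMP regions without a k- partner was highest on chromosomes 13 (58.4%, 50.5 to 66.0%), 18 (56.5%, 45.8 to 66.8%) and 17 (55.7%, 47.3 to 63.8%). It was lowest on chromosomes 9 (38.7%, 30.8 to 47.0%), 8 (46.2%, 37.8 to 54.7%) and 1 (47.2%, 40.8 to 53.6%). Of the 19 intervals, that of chromosome 9 lay below the 50.5% over all, and that of chromosome 13 began at it. Some of many intervals at 95% can leave out the value they estimate, and a difference between chromosomes was not tested, so the chromosomes are not ranked. Chromosome 9 also had the most k- regions for each GMP region, 5.29 against 4.31 over all. For k- regions without a GMP partner, none of the 19 intervals left out 89.4%.

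**Figure D5:**
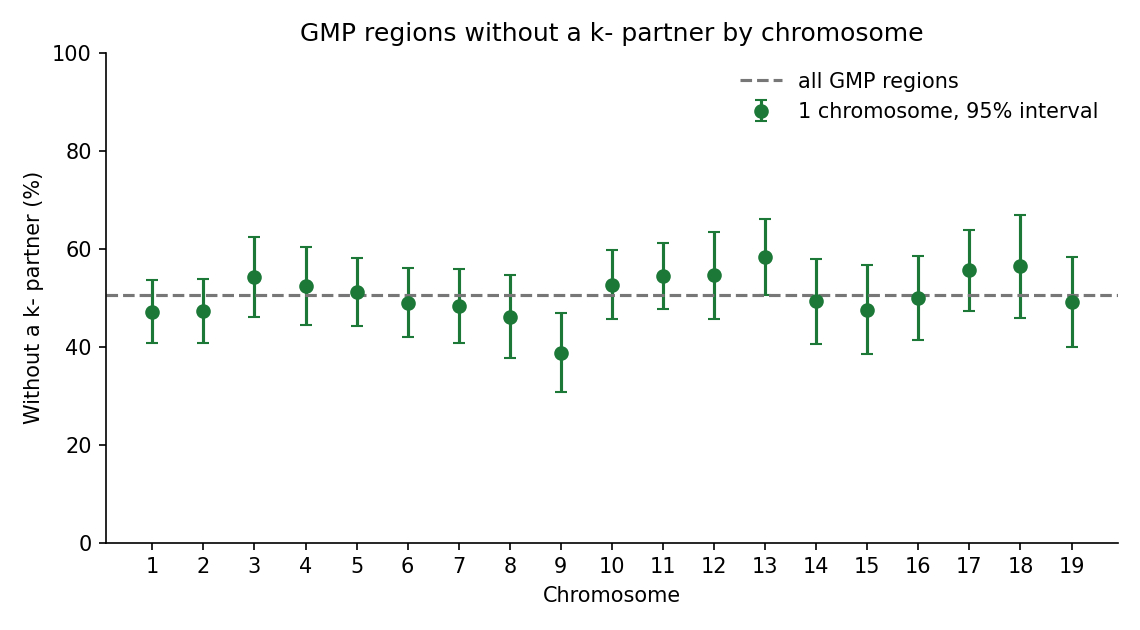
Share of GMP regions without a k- partner (y axis, percent) for each of the 19 autosomes (x axis), with exact 95% intervals. The dashed line is the share over all GMP regions, 50.5%. The interval of chromosome 9 lies below it and that of chromosome 13 begins at it.

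On the autosomes, each class had a higher share in pale chromosome bands, and a lower share in the darkest ones, than the length of those bands. Giemsa-negative bands, the pale bands of stained chromosomes that are known to be rich in genes, made up 41.2% of the autosomes. They held 45.7% (43.2 to 48.1%) of GMP-only, 47.6% (45.1 to 50.1%) of shared GMP, 47.6% (46.7 to 48.5%) of k- only and 47.6% (45.0 to 50.2%) of shared k- regions. The darkest bands, 31.2% of the autosomes, held 21.8% (19.8 to 23.9%), 20.8% (18.8 to 22.9%), 22.3% (21.6 to 23.0%) and 21.1% (19.003 to 23.3%) of these classes. On these autosomes the intervals of the 4 classes overlapped each other, and the difference between classes was not tested. With X, Y and the start of chromosome 11 included, GMP-only regions numbered 1752 instead of 1599 and stood apart. Of these, 42.1% (39.8 to 44.5%) lay in Giemsa-negative bands, against 47.4% (44.9 to 49.9%) of shared GMP regions. The length share of Giemsa-negative bands with these stretches included is not given here.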

How the data were processed

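The authors deposited 6 region lists for the series, of which the GMP and k- enhancer lists were used. Each gives chromosome, start and end, with 0 columns of score or count. The build is mm9, and BWA, Picard, MACS2, HOMER and deepTools are named, per the submitters' processing notes; no source used here gives settings, versions or the rule that called an enhancer. Positions are counted from 1. Overlaps, gaps and domains were computed in Python 3.11.15 (pandas 2.3.3, NumPy 2.4.6, SciPy 1.17.1, matplotlib 3.10.9), tested on simulated data and checked with bedtools 2.31.1. Bands came from circlize 0.4.16 and chromosome lengths from GenomeInfoDb 1.38.1 in R 4.3.3.

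The members, and the rules below, were chosen with earlier results of these data known. Regions named are the 5 widest of GMP-only, k- only and shared GMP regions, the 5 most isolated GMP-only regions, the 5 with the most partners in each list, and the 5 domains with the most regions of these classes; for chromosomes, the 3 highest and 3 lowest shares; ties were taken in chromosome order, and a sixth domain tied for GMP-only regions was added after its values were seen. Windows of 1 Mb, neighbour counts, pairs of GMP neighbours, length shared by width and single bands were added with the data in view. Lists of genes and motifs had been set for use with mm9 sequence and annotation; the tables at hand were for GRCm38, coordinates were not converted, and genes, motifs and read signal were not analysed here.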

Additional observations from a re-analysis of the deposited data

Results flagged for a closer look

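Some GMP regions lay in stretches outside the comparison: 105 on X, 41 on Y and 22 at the start of chromosome 11. They drew attention as signal in data that the comparison did not use. By the 1 bp rule, 97 of the 105, all 41 and 15 of the 22 had no k- partner. The k- list held 206 regions on X, 11 at the start of chromosome 11 and 0 of its 13856 on Y. With 3 regions taken as the limit for a count of 0, which is not an exact interval, this allows a share of up to 0.0217%. The sex of the animals is not given in the labels, and how well reads map in these stretches was not examined.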

How the results depend on the processing

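No paired analysis was possible because there is 1 sample per group, and leaving out a replicate was not applicable. Of 48 alternative values, 21 stayed within the counting interval of the reported value and 27 moved out of it. The order of 2 comparisons did not hold: the larger width step in k- turned with 50% of both regions shared, and the higher share of GMP-only than k- only regions within 10 kb was gone at equal list size. The GMP share without a k- partner (50.5%) was 53.2% with 50% of the shorter region shared, 87.1% with 50% of both, 35.2% within 1 kb and 45.2% with touching regions counted, an alternative added after the data had been seen. With both lists cut to regions of at least 400 bp it was 47.3%, and with both cut to at least 800 bp 42.5%. It was 70.5% against the widest k- regions at equal list size, 52.9% for 500 bp either side of midpoints and 52.6% on all chromosomes. The k- share without a GMP partner (89.4%) was 90.1%, 97.0%, 84.5% and 88.03% under the first 4 of these. It was 91.7% with both lists cut to at least 800 bp, 75% for the widest k- regions and 88.2% with regions within 1 kb joined. Joining gave k- only regions a median of 1000 bp. With 50% of both shared, medians were 1000 bp for shared GMP and 1200 bp for shared k- regions. With both lists cut to at least 800 bp, 40.2% of GMP-only and 8.497% of k- only regions lay within 10 kb of the other list. Against the widest k- regions, 19.6% of GMP-only regions did. Stitching at 5 kb and 25 kb put 43.7% and 66.0% of GMP-only and 15.9% and 36.9% of k- only regions in domains with the other list. On all chromosomes 42.1% of GMP-only regions lay in Giemsa-negative bands.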

Other observations

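Of 369 autosomal bands, 345 held a k- region and 315 a GMP region, and GMP regions outnumbered k- regions in 5. A difference between bands was not tested, and some of many 95% intervals can leave out the share over all when no band differs. Among 130 bands with 10 or more GMP regions, the intervals of 7 left out the share of 50.5% without a k- partner. The interval lay below it, with these numbers of GMP regions without a partner, in band qC3 of chromosome 8 (2 of 12), band qA3 of chromosome 14 (3 of 18) and band qC of chromosome 9 (4 of 19). It lay above it in band qB2 of chromosome 10 (10 of 12), band qC1 of chromosome 12 (12 of 15), and bands qB1 (17 of 22) and qC (15 of 20) of chromosome 17.

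The k- list was densest in band qA5.2 of chromosome 9, with 21.6 regions per Mb against 5.52 over all autosomes. That band held 50 k- and 8 GMP regions. In band qE2 of chromosome 7, at 17.7 per Mb, 47 k- regions stood beside 2 GMP regions. On chromosome 15 in band qD1, from 63816201 to 63889800, 12 k- regions covering 20000 bp held 2 GMP-only regions of 400 bp between them, neither overlapping. These bands and this domain were chosen after their values were seen.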
